A study of Homo sapiens with 6 samples.

Results

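HK2, ENO2 and SLC2A3 are 3 genes of glucose uptake and glycolysis that read lower in SETD8 knockout cells than in control cells. They were picked by name from the 7983 genes of the deposited comparison of these same groups, with their difference already known, so their values are given as a description without a test. The cells were Kasumi-1, a human acute myeloid leukaemia line with the t(8;21) translocation that fuses RUNX1 to RUNX1T1. Control libraries (n = 3) came from cells with the guide labelled sgNT and the genotype label WT. Knockout libraries (n = 3) came from cells edited with CRISPR/Cas9 and the guide labelled sgSETD8. SETD8, now named KMT5A, is the enzyme that puts a single methyl group on lysine 20 of histone H4. All cells grew in RPMI medium with 10% fetal bovine serum, and polyadenylated RNA was sequenced. The labels give no time after editing and do not say whether a number marks a culture, a clone or a guide, so the spread between libraries may be technical.

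Glucose enters cells through facilitative transporters of the SLC2A family, among which SLC2A3 encodes GLUT3, a transporter with high affinity for glucose. Hexokinases then phosphorylate the sugar and trap it inside; HK2 is an isoform that can dock on the outer mitochondrial membrane. Enolases convert 2-phosphoglycerate to phosphoenolpyruvate near the end of the pathway, and ENO2 encodes the gamma isoform, also called neuron-specific enolase. Several genes of the pathway are textbook targets of the hypoxia-inducible factors (HIF), and leukaemia cells commonly run glycolysis at a high rate in the presence of oxygen.

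No gene of the deposited table has a p-value above 0.049998 in the authors' own comparison, and genes outside it were not analysed here. The listed genes held 10966349 to 12557974 reads in a library. KMT5A itself read 1191, 1212 and 1255 in control and 880, 933 and 939 in knockout, a 1.33-fold fall (limma-trend adjusted p = 5.65e-05), so its mRNA was lower but present. Of 12 markers written for acute myeloid leukaemia cells, 11 were in the table, and CD38 was not analysed here. Among them 3 fell, 6 rose and 2 did not pass, where 46.7% of all tested genes fell and 47.3% rose. MPO, the myeloid granule peroxidase, fell from 12254 ± 373 to 1541 ± 27.3 and PTPRC (CD45) from 3021 ± 159 to 1344 ± 72.1 (SD, n = 3). CD33, 1 of the 6 that rose, went from 435 ± 53.6 to 990.0 ± 35.3. The summed normalized count of the 11 markers was 93242 to 96502 in control and 71814 to 73581 in knockout. KIT, the receptor of stem cell factor, picked out after its value was seen, held most of it at 60704 ± 955 and 43551 ± 793. Of 25 markers written for other cells, 7 were in the table, 4 rose, 2 fell and GP9, at a mean of 0.330 in control and 6.12 in knockout, was below the minimum for testing. Their sum was 2807 to 2994 in control and 3624 to 4012 in knockout, mostly from CD3D and EPCAM, picked out after their values were seen. The part of these markers in the results below was not tested. A difference in RNA per cell cannot be told apart from a difference in the make-up of the culture in such bulk samples.

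HK2 (ENSG00000159399, chromosome 2, 74833981 to 74893359, hg38, plus strand) was the most abundant of the trio. Its normalized read count, which is the read count scaled by the authors to the size of each library, was 21335, 22987 and 22622 in control and 9176, 9818 and 9778 in knockout. The lowest control library was 2.17 times the highest knockout library, so the groups did not overlap. The mean was 22315 ± 868 in control and 9591 ± 360 in knockout (SD, n = 3 each), 2.33-fold lower. On the log2(value + 1) scale the fold change of knockout against control was -1.22 (SE 0.06), a scale used for every log2 fold change here.

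ENO2 (ENSG00000111674, chromosome 12, 6913745 to 6923698, plus strand) had the lowest level. It read 931, 864 and 834 in control and 339, 367 and 338 in knockout. Every knockout library lay below every control library, by a factor of 2.27 at the closest. The means were 877 ± 49.4 and 348 ± 16.7, a 2.52-fold difference and a log2 fold change of -1.33 (SE 0.09). The knockout libraries held 325, 370 and 362 reads of ENO2, for which counting alone gives a coefficient of variation of 5.33%, close to the 4.81% seen between them. In control the value seen was 5.64%, where counting alone gives 3.37%.

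SLC2A3 (ENSG00000059804, chromosome 12, 7919230 to 7936275, minus strand) read 5403, 5449 and 5342 in control and 2432, 2531 and 2426 in knockout. Its libraries were the tightest of the trio in both groups, with coefficients of variation of 0.995% and 2.40%. Counting alone gives 1.36% and 2.00%, so the control spread was below that of counting. The groups were apart by a factor of 2.11 at the closest. The means were 5398 ± 53.7 and 2463 ± 59.1, a 2.19-fold difference and a log2 fold change of -1.13 (SE 0.05).

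**Figure D1:**
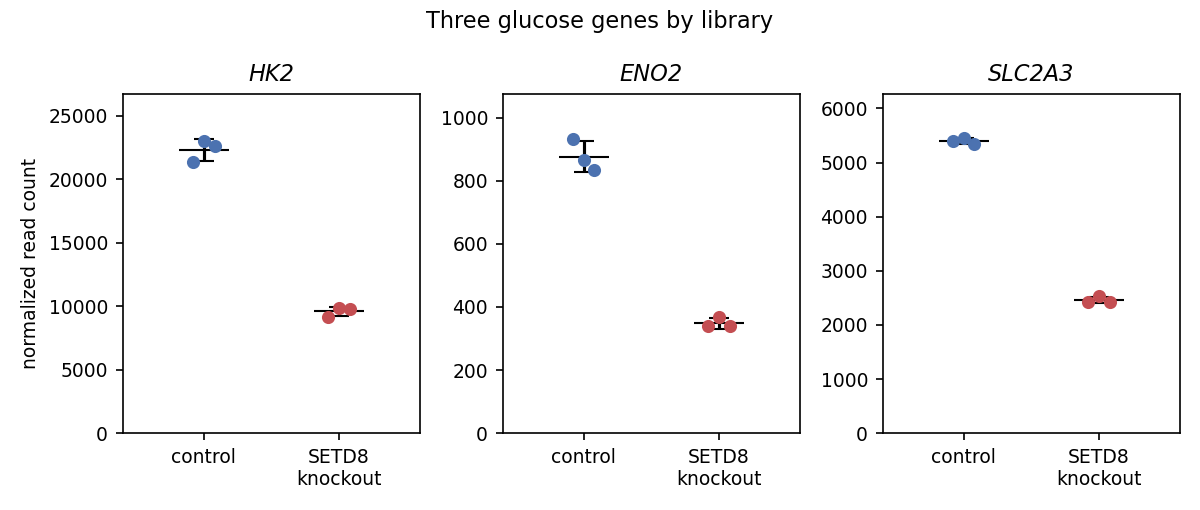
Normalized read counts of HK2, ENO2 and SLC2A3 in each of the 3 control (blue) and 3 SETD8 knockout (red) libraries; bars are the mean and SD, and each vertical axis starts at 0. In each panel all knockout libraries lie below all control libraries, with means of 9591, 348 and 2463 against 22315, 877 and 5398.

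Groups without overlap were common in this table: all knockout libraries lay below all control libraries in 47.4% of the 7516 genes with a mean of at least 10, a minimum that HK2, ENO2 and SLC2A3 all passed. Ranked from the most negative log2 fold change, ENO2 was number 488 of those genes, HK2 number 578 and SLC2A3 number 665. The 10th percentile of all 7516 log2 fold changes was -1.06, and each of the trio lay below it. Differences of this size were thus not particular to the trio. A fall of at least 1 on the log2 scale was called in 10.7% of all tested genes and a rise of that size in 8.34%. The table was already filtered on this contrast, so these shares and ranks hold within it and not over all expressed genes.

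Levels can be compared between genes per length, here as normalized counts per kilobase of the gene length in the table. HK2 stood at 3680 per kilobase in control and 1582 in knockout, SLC2A3 at 876 and 400, and ENO2 at 205 and 81.3. The order HK2, SLC2A3, ENO2 was the same in all 6 libraries, with no overlap between neighbours in it. Among the 7516 genes HK2 ranked 79 by level per length in control and 284 in knockout. SLC2A3 went from rank 503 to rank 1443 and ENO2 from 2699 to 4659.

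The trio differed little among itself in the size of the difference. The per-length ratio of HK2 to SLC2A3 was 4.01, 4.28 and 4.30 in control and 3.83, 3.94 and 4.09 in knockout, so the groups overlapped. The ratio of SLC2A3 to ENO2 was 4.03, 4.38 and 4.45 in control and 4.99, 4.79 and 4.99 in knockout, without overlap, ENO2 being the lower of the pair relative to its control level. Centred on each gene's own mean over the 6 libraries, the log2 patterns of HK2 and SLC2A3 differed by a root mean square of 0.06, those of HK2 and ENO2 by 0.10 and those of SLC2A3 and ENO2 by 0.11.

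Some protein-coding genes outside the pathway had still closer patterns, by the same measure over 6 libraries. For HK2 the nearest were NCOA6 (0.04), a nuclear receptor coactivator, P2RX7 (0.04), an ATP-gated channel, and ARID5A (0.05), an RNA-binding protein. For ENO2 they were HMGCS1 (0.02), an enzyme of cholesterol synthesis, TENT5C (0.05), a poly(A) polymerase, and KLF9 (0.05), a transcription factor. For SLC2A3 they included CYTH1 (0.04), a guanine nucleotide exchange factor, and GLUL (0.04), glutamine synthetase. GLUL read 32513 ± 274 in control and 14114 ± 512 in knockout. With 2 groups of 3 libraries this measure mostly reads the size of the group difference.

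Copies and overlapping annotation bear on how surely reads belong to each gene. SLC2A14, a close paralogue of SLC2A3, lies 28.1 kb from it on the same strand, and processed pseudogenes of SLC2A3 (SLC2A3P1, SLC2A3P2 and SLC2A3P4) and of HK2 (HK2P1) are annotated elsewhere. None of them was in the table, and the sources used here do not say how reads that match several places were counted. LRRC23 overlaps the 5′ end of ENO2 on the same strand and AC019069.1 overlaps the start of HK2 on the other strand, so those counts are less certain there.

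The promoter sequences are shown because the lower genes include HIF targets, whose response element has ACGTG as a core. RefSeq windows (GRCh38.p14), taken as the 250 bases before a start site, matched 2 of the 3 genes, with 2 start sites for HK2 and 1 for ENO2. ACGTG was searched on both strands, and capitals mark it or its reverse complement CACGT. The stretches of 29 bases around each match upstream of the first HK2 start site, on the plus strand at chr2:74833886-74833914 and chr2:74834067-74834095, and upstream of ENO2, on the plus strand at chr12:6914450-6914478, read as follows.
HK2 at 229 bases upstream: agccacggaccaCACGTcccatctcaggc
HK2 at 48 bases upstream: aatgggcgtgcgCACGTcactgatccgga
ENO2 at 118 bases upstream: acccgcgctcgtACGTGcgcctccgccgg

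The first of these HK2 stretches lies before the annotated gene. The other HK2 stretch and that of ENO2 lie upstream of the RefSeq start sites but inside the annotated genes. GENCODE exons of the same gene overlap each of these 2 windows. Whether the stretches themselves lie in an exon was not tested. The second HK2 start site lies inside the gene, and its window, on the plus strand at chr2:74834920-74835169, overlaps no GENCODE exon of HK2. It holds CACGTG, the E-box read by MYC-type factors, at 2 places, in capitals below. Each CACGTG contains ACGTG on both strands, so the motifs overlap.
HK2 second start site: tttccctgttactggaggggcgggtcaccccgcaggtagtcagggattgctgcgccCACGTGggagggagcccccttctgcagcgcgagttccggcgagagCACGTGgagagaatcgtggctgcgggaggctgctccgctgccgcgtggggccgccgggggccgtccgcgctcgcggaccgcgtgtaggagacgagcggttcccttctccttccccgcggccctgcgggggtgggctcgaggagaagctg

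ACGTG was found in 18.5% of all 35116 windows of this length and CACGTG in 6.34%. TGTGGT, a RUNX-type motif, was in 11.0% of all windows and was found only in the first HK2 window among the 3. GGGCGG, the GC box, was in 42.6% of all windows and in all 3 of these. Of 34 windows of the listed HIF targets outside glycolysis, 61.8% held ACGTG, against 28.4% of 67 windows of the other glycolysis genes. The first list was written as known HIF targets, so its high share was largely set beforehand. Windows of both lists were taken whether or not a gene was in the table or fell. A match describes the letters and not binding, and no binding data were used here.

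The other genes of uptake and glycolysis went both ways. Of 46 written besides the trio, 15 were in the table and all 15 were tested. At an adjusted p below 0.05 (limma-trend, Benjamini-Hochberg), 4 rose and 9 fell, and the median log2 fold change was -0.25, where that of all tested genes was 0.14. The latter was -0.12 with no minimum on the mean and -0.002 with the neighbour trend (the median change of genes within 5 Mb) subtracted, so its sign depends on the setting, and the falls in glycolysis were 5 under the second of these. Of all tested genes 47.3% rose and 46.7% fell, 94.1% in either direction. The table held only genes with low p-values in the authors' comparison of these same libraries, so passing was largely set beforehand.

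Among transporters, 4 of 5 fell and 1 rose, beside 46.7% and 47.3% of all tested genes. SLC2A1, the widely expressed GLUT1, read 2811, 3175 and 3208 in control and 2230, 2438 and 2292 in knockout, without overlap. It fell 1.32-fold, a log2 fold change of -0.40 (SE 0.06, limma-trend adjusted p = 2.12e-05). SLC2A3 stood above SLC2A1 in control and below it in knockout: their per-length ratio was 1.36 ± 0.10 in control and 0.815 ± 0.020 in knockout. SLC2A5, the fructose transporter GLUT5, rose from 145 ± 6.29 to 374 ± 7.93, and SLC2A6, SLC2A11 and SLC2A13 fell from 67.5, 126 and 550.1 to 30.1, 77.1 and 381. The call of SLC2A11 ended without knockout replicate 2 (adjusted p = 0.076) or without control replicate 1 (0.055), and those of SLC2A6 (0.057) and SLC2A13 (1.0) ended once the median change of genes within 5 Mb was subtracted.

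At the hexokinase step, HK1, the general isoform, fell 1.19-fold from 4758 ± 250 to 4001 ± 247 (limma-trend adjusted p = 0.00184). Per length, HK2 exceeded HK1 by 4.90, 5.03 and 4.68 times in the control libraries and by 2.56, 2.43 and 2.48 times in the knockout libraries. HK2 therefore stayed the more abundant of these isoforms in every library. ADPGK, which phosphorylates glucose with ADP, rose 1.33-fold from 1666 ± 122 to 2221 ± 41.8. HK3 and HKDC1 were not analysed here.

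**Figure D2:**
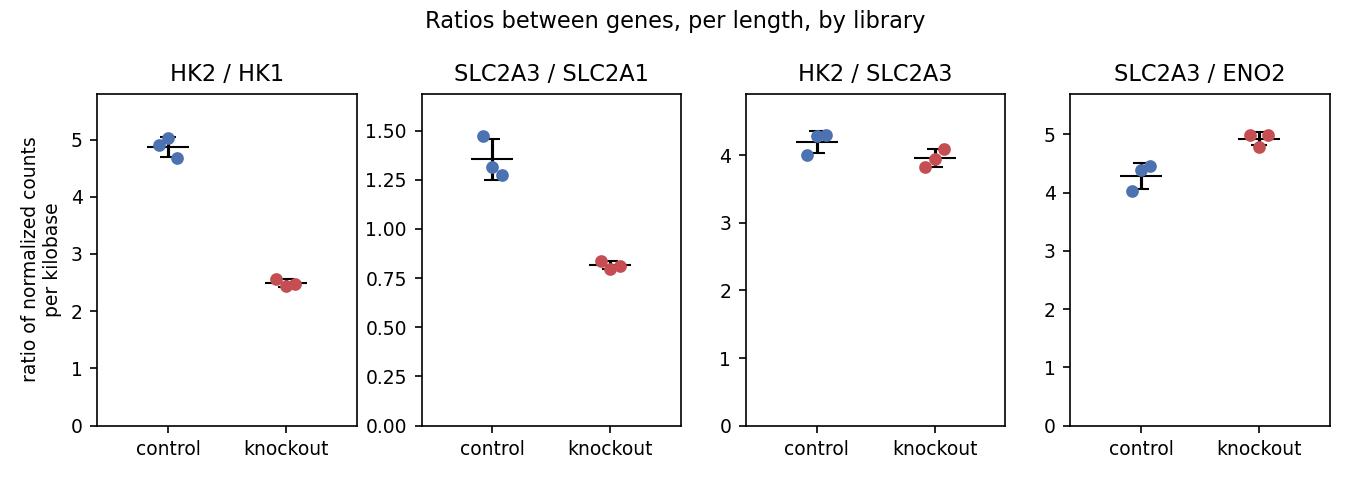
Per-length ratios of HK2 to HK1, SLC2A3 to SLC2A1, HK2 to SLC2A3 and SLC2A3 to ENO2 in each control (blue) and knockout (red) library, with mean and SD; axes start at 0. HK2 to HK1 goes from 4.87 to 2.49 and SLC2A3 to SLC2A1 from 1.36 to 0.815, whereas HK2 to SLC2A3 stays near 4 in both groups.

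In the steps from hexose phosphate to triose phosphate, ALDOC, aldolase C, read 3113 ± 276 in control and 1571 ± 82.5 in knockout, a 1.98-fold fall (log2 -0.98, limma-trend adjusted p = 9.98e-11). GPI, which isomerises glucose 6-phosphate, rose 1.22-fold from 10426 ± 638 to 12699 ± 526. TPI1, triosephosphate isomerase, rose 1.35-fold from 6942 ± 401 to 9372 ± 492. ALDOA fell from 201 to 123, a low level for which AC093512.2, an overlapping gene on the same strand, leaves the assignment of reads uncertain. With the trend of neighbouring genes subtracted, GPI, TPI1 and ALDOA were at log2 -0.01, 0.01 and 0.01, and none of them kept its call. PFKFB4, which makes the phosphofructokinase activator fructose 2,6-bisphosphate, fell 1.52-fold from 3749 ± 205 to 2474 ± 140. The phosphofructokinases PFKL, PFKM and PFKP were not analysed here.

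In the later steps of the pathway the abundant enzymes moved little. PGK1, phosphoglycerate kinase, stood at 25708 ± 730 and 27572 ± 1551 and did not pass (limma-trend adjusted p = 0.32). PKM, pyruvate kinase, stood at 22544 ± 687 and 24609 ± 654 (limma-trend adjusted p = 0.11). PGAM1, phosphoglycerate mutase, fell 1.11-fold from 8039 ± 322 to 7228 ± 143, a call that turned to log2 0.36 with the neighbour trend subtracted and ended without any one of 4 libraries (knockout 2, knockout 3, control 2 or control 3; adjusted p 0.066 to 0.18). Among the 4 genes of these steps in the table, ENO2 had the largest difference. GAPDH, ENO1 and ENO3 were not analysed here, so the share of ENO2 among the enolases is not known from these data.

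**Figure D3:**
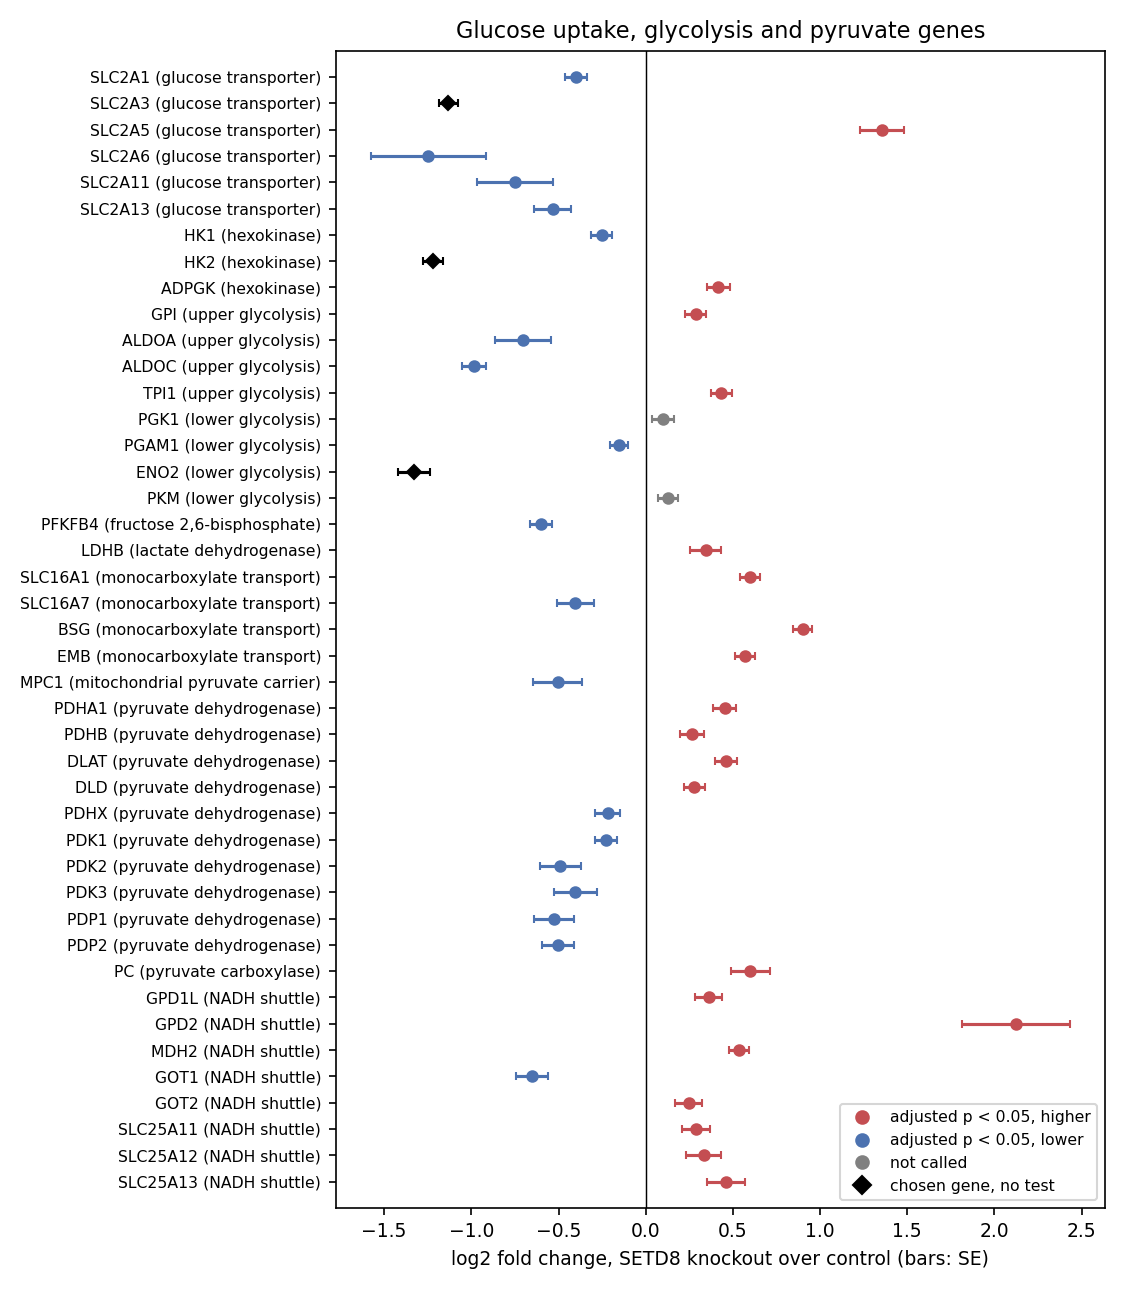
Log2 fold change, SETD8 knockout over control, of each tested gene of glucose uptake, glycolysis, pyruvate use and the NADH shuttles in pathway order. Bars are the SE from limma-trend. Red and blue mark adjusted p below 0.05, grey did not pass, and black diamonds are HK2, ENO2 and SLC2A3 (no test). The diamonds lie between -1.33 and -1.13, while BSG at 0.90 and GPD2 at 2.12 lie on the other side.

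In the list of pyruvate, lactate and NADH shuttle genes more rose than fell. Of 38 written genes 25 were tested, 16 rose and 9 fell, with a median of 0.29. The excess of rises lay mostly in the 8 NADH shuttle genes, of which 7 rose and 1 fell. Among all tested genes 47.3% rose and 46.7% fell. With the neighbour trend subtracted 11 of this list rose and 6 fell. Of 4 genes of monocarboxylate transport 3 rose and 1 fell. SLC16A1, the lactate transporter MCT1, went from 1962 ± 79.7 to 2968 ± 42.7, and BSG, the chaperone basigin that carries it to the membrane, from 7489 ± 141 to 13981 ± 647, 1.87-fold (limma-trend adjusted p = 1.33e-11). EMB, a related chaperone, rose from 4415 to 6564 and SLC16A7, MCT2, fell from 817 to 612. LDHB, the dehydrogenase subunit favouring pyruvate, rose from 699 ± 47.9 to 890 ± 103, and LDHA and SLC16A3 were not analysed here. EMB lost its call with the neighbour trend subtracted (log2 0.01), LDHB with the length trend subtracted (adjusted p = 0.056), and SLC16A7 without control replicate 1 (0.064) and with the length trend subtracted (0.28).

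Of 10 tested genes of the pyruvate dehydrogenase complex and its regulation 4 rose and 6 fell, beside 47.3% and 46.7% of all tested genes. PDK4, PDPR and PDHA2 of this group were not analysed here. The catalytic subunits rose: PDHA1 1.37-fold, PDHB 1.20-fold, DLAT 1.38-fold and DLD 1.21-fold. The tested kinases that inactivate it fell, PDK1 from 2367 to 2023, PDK2 from 361 to 257 and PDK3 from 416 to 317. The phosphatases that reactivate it, PDP1 and PDP2, also fell, from 367 to 255 and from 719 to 507, as did the binding subunit PDHX, 1.16-fold. MPC1, a subunit of the mitochondrial pyruvate carrier, fell from 296 to 210, and PC, pyruvate carboxylase, rose from 287 to 435. Subtracting the trend of neighbouring genes took PDK2 to log2 0.15, PDK3 to -0.15, PDHB to 0.03 and PC to 0.26, subtracting the length trend took PDK1 to 0.01, and none of these kept its call. Leaving out 1 library ended PDHX (knockout 3 or control 3), MPC1 (knockout 3) and PDK3 (knockout 1, knockout 2 or control 3), at adjusted p from 0.0503 to 0.13.

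Shuttles that pass NADH electrons into mitochondria mostly rose, 7 of 8, beside 47.3% of all tested genes. GPD2, mitochondrial glycerol 3-phosphate dehydrogenase, went from a low 18.2 ± 4.24 to 82.9 ± 22.4, and MDH2, mitochondrial malate dehydrogenase, from 3168 ± 98.3 to 4593 ± 219. GOT1, the cytosolic aspartate aminotransferase, was the 1 that fell, from 985 ± 96.0 to 627 ± 68.6, and stood at log2 0.00 with the neighbour trend subtracted. That setting also left SLC25A11 at -0.11 and SLC25A13 at 0.16 without a call. The calls of SLC25A12 (without knockout 2, adjusted p = 0.11) and GOT2 (without knockout 1, knockout 2 or control 1, adjusted p 0.058 to 0.14) ended with the loss of 1 library.

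Pathways that branch from glycolysis also went both ways. Of 61 written genes 26 were tested, 11 rose and 13 fell, with a median of -0.14, beside 47.3% and 46.7% of all tested genes. H6PD, the hexose phosphate dehydrogenase of the endoplasmic reticulum, fell from 1432 ± 89.9 to 689 ± 69.4, OGA, which removes O-linked N-acetylglucosamine, from 2941 ± 151 to 1592 ± 33.0, and PYGB, glycogen phosphorylase, from 7067 ± 483 to 3970 ± 154. AKR1B1, aldose reductase, rose from 279 ± 32.0 to 527 ± 57.5. The count that fell was 6 with the neighbour trend subtracted.

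Known HIF targets outside glycolysis were mostly lower. Of 34 written genes 23 were tested: 17 fell, 4 rose and 2 did not pass, with a median of -0.55. Of these, 9 fell by at least 1 on the log2 scale, a size called in 10.7% of all tested genes. Falls of any size were called in 46.7% of all tested genes and rises in 47.3%. BHLHE40, a repressor of the basic helix-loop-helix class, fell 5.24-fold from 2314 ± 96.9 to 442 ± 40.2. MXI1, which competes with MYC for its partner MAX, fell 2.86-fold from 2241 ± 91.7 to 785 ± 41.5. DDIT4, an mTORC1 inhibitor that is also induced in the integrated stress response, fell 2.63-fold, and JMJD6, a dioxygenase, fell 2.53-fold from 1835 ± 115 to 726 ± 36.4. The highest limma-trend adjusted p of these 4 genes was that of JMJD6, 1.74e-12.

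Further HIF targets are named after their values were seen. ADM, adrenomedullin, went from 1112 ± 48.6 to 516.7 ± 6.31, KDM3A, a histone demethylase, from 7488 ± 169 to 3859 ± 75.8, and HILPDA, a lipid droplet protein, from 1520 ± 101 to 752 ± 46.0. VEGFA, an angiogenic growth factor, fell less, from 5671 ± 209 to 4306 ± 120. Among those that fell, WSB1 (log2 -0.11) and KDM4C (0.15) lost their calls with the neighbour trend subtracted. With the length trend subtracted KDM4B (-0.001) and KDM4C (-0.16) lost theirs, and 15 falls were called in each of these settings. EFNA1, at log2 -4.03, had a mean of only 0.642 in knockout. The 4 that rose were NDRG1, STC2, PLOD1 and PPFIA4, and the first 3 lost their calls with the neighbour trend subtracted. PPFIA4 had a mean of only 5.58 in control and lost its call without any one of 4 libraries (adjusted p 0.052 to 0.11). These genes have other regulators too, so the count describes the list and no more.

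**Figure D4:**
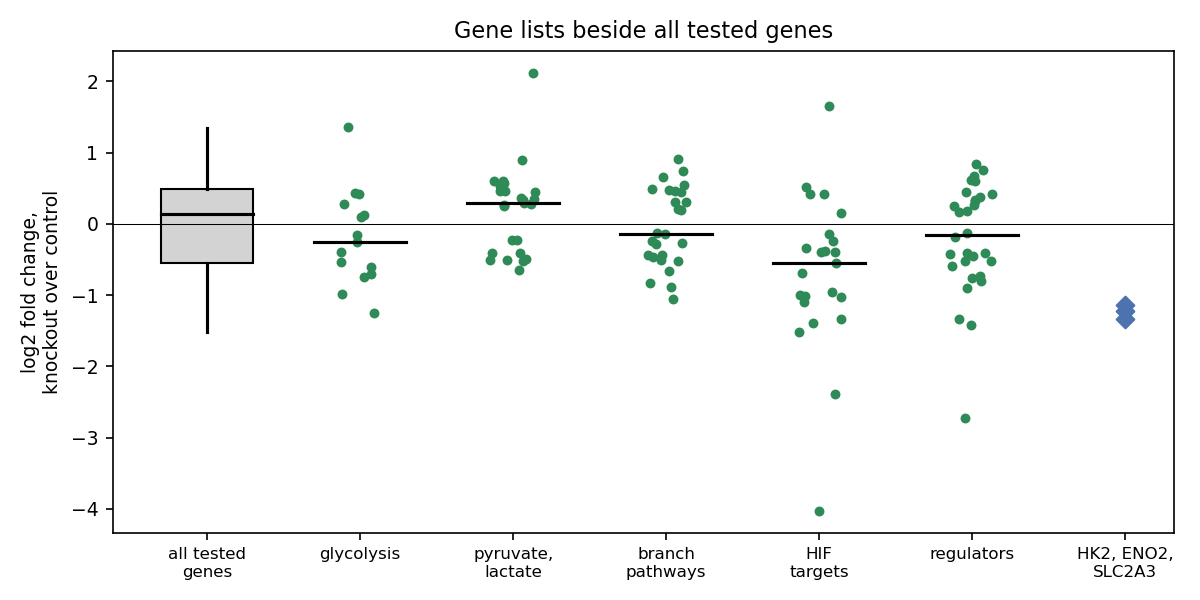
Log2 fold change, knockout over control, of all 7516 tested genes (box: quartiles and median; whiskers: 5th to 95th percentile) beside the tested members of 5 gene lists (green, horizontal line at the median) and HK2, ENO2 and SLC2A3 (blue diamonds). The HIF list has the lowest median, -0.55, and the pyruvate and lactate list the highest, 0.29.

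Among 50 regulators of glucose use 30 were tested, 12 rose and 15 fell, with a median of -0.15, beside 47.3% and 46.7% of all tested genes. With the neighbour trend subtracted 5 rose. KLF2 and KLF6, zinc finger factors, fell from 170.1 ± 28.9 to 26.4 ± 12.4 and from 2828 ± 85.6 to 1056 ± 87.3. PRKAG1, a subunit of the energy sensor AMPK, fell from 1367 ± 79.7 to 544 ± 50.1, and TSC1, an inhibitor of mTORC1, from 1386 ± 46.7 to 745 ± 37.6. Of the HIF system, ARNT, the partner subunit of HIF, fell from 1153 to 766.5, HIF1AN, the asparagine hydroxylase that inhibits HIF, fell 1.75-fold, and CITED2, a competitor for its coactivator, rose 1.36-fold; HIF1A and EPAS1 were not analysed here. Of the genes grouped as carbohydrate sensing 2 rose and 2 fell: TXNIP, an arrestin that restrains glucose uptake, rose from 1373 ± 56.5 to 2472 ± 101 and MLXIP from 2157 ± 189 to 2816 ± 419, while the related arrestin ARRDC4 fell from 152 ± 14.9 to 90.9 ± 7.29 and MLX from 1194 ± 36.7 to 874 ± 82.7. With the neighbour trend subtracted TXNIP alone of these kept its call. VDAC1, VDAC2 and VDAC3, the outer membrane channels to which HK2 binds, rose 1.27-fold, 1.34-fold and 1.52-fold. The genes named from the HIF system, the carbohydrate-sensing genes and the VDAC genes were chosen after their values were seen, and HIF1AN, CITED2, VDAC1 and VDAC2 lost their calls with the neighbour trend subtracted.

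The trio sits in unlike surroundings on the chromosomes. ENO2 and SLC2A3 lie 995.5 kb apart on chromosome 12, and HK2 is on chromosome 2. Within 1 Mb of ENO2, 14 of 16 other tested genes rose and 2 fell, the median log2 fold change being 0.46. Of all tested genes 47.3% rose and 46.7% fell, with a median of 0.14. TPI1, an enzyme of the same pathway, ends 42.8 kb from ENO2 and was 1.35-fold higher, where ENO2 was 2.52-fold lower. The next tested genes around the pair, USP5 (log2 0.26), CDCA3 (0.50) and PHB2 (0.31), also rose, as did C1R (1.02), while C1S fell (-0.33). The latter 2 encode complement proteases.

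Within 1 Mb of SLC2A3 only 7 other tested genes were present, of which 4 rose and 2 fell, beside 47.3% and 46.7% of all tested genes. The nearest, FOXJ2, did not pass (log2 -0.28), and the C-type lectin receptors CLEC4E and CLEC4D rose, from 64.4 ± 4.41 to 122 ± 11.7 and from 0.661 ± 1.14 to 100.4 ± 1.95. Within 5 Mb the median was 0.44 around ENO2 (36 genes) and 0.45 around SLC2A3 (39 genes), each count including the other of the pair. Lower by at least 1 on the log2 scale in each window were the other of the pair and TSPAN9, a gene picked out after its value was seen. Around HK2, 17 of the 33 genes within 5 Mb fell and 12 rose, with a median of -0.26. Of all tested genes 46.7% fell, so the count that fell around HK2 was near that share. Of the 3 nearest tested protein-coding genes on each side of HK2, SEMA4F (0.69) and POLE4 (0.64) rose while M1AP (-0.84), DOK1 (-0.20), SUCLG1 (-0.20) and CTNNA2 (-3.60, at low counts) fell. Tested genes are sparse on the POLE4 side, where CTNNA2 lies 4292 kb and SUCLG1 9530 kb away.

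**Figure D5:**
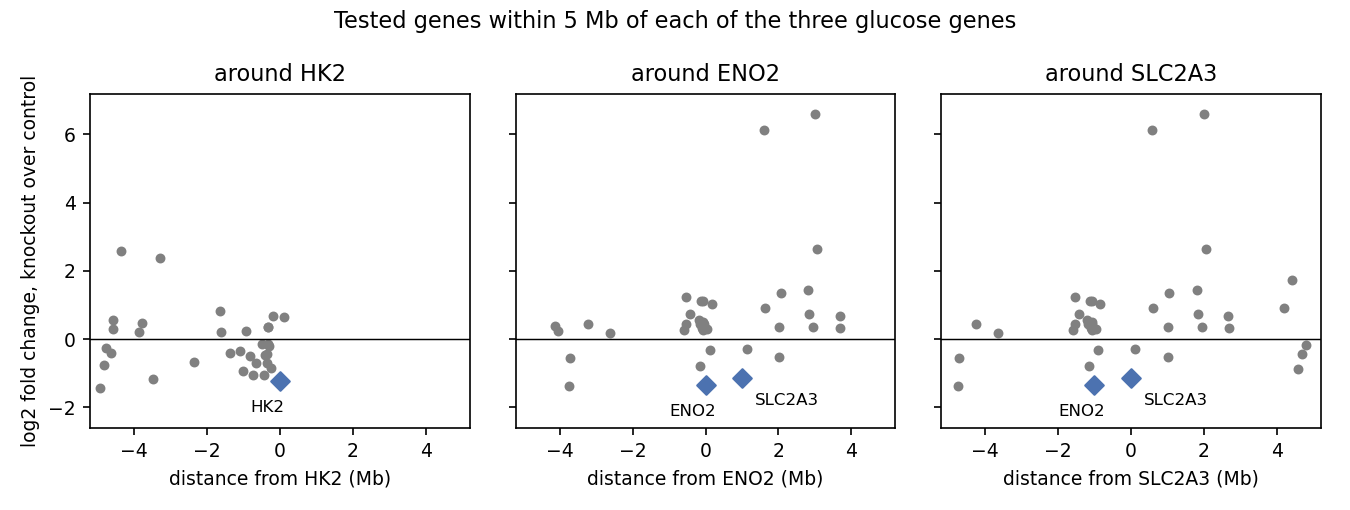
Log2 fold change, knockout over control, of tested genes within 5 Mb of HK2, ENO2 and SLC2A3 against the distance between gene midpoints; each grey point is a gene and blue diamonds are the named genes. Most points around ENO2 and SLC2A3 lie above 0 (medians 0.44 and 0.45), and around HK2 somewhat more lie below it (median -0.26).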

How the data were processed

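The series is bulk RNA-seq of 6 libraries. Per the submitters' processing notes, the tools included HISAT2 and DESeq2 and the build was hg38; the sources used here do not name the counter or its strand setting. The authors deposited 1 table in which the values per library are a signal: read counts divided by a size factor (0.959 to 1.07). Dividing by the value of 1 read gave whole reads (within 0.001) for 100% of values, less certain for control 3 and knockout 2, where 1 read is worth 0.991 and 0.993. The authors also deposited their log2 fold change for each gene, with its p-value raw and adjusted, not used as results here. Deposited coordinates matched GENCODE 29 for 7974 of 7983 genes.

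Genes with a mean of at least 10 (7516; 467 left out) entered a two-sided limma-trend fit without a block, run on log2(value + 1) in R 4.3.3 with limma 3.58.1. Benjamini-Hochberg adjustment used the 19860 genes that the authors' adjusted p-values imply, and a gene was called below 0.05. The table was thus filtered on this contrast. The genes, lists and tests were chosen with earlier results of these data known. Named genes were the trio, KMT5A, tested genes of the glycolysis and pyruvate lists, from each other list up to 4 called genes, taken by size of change among those whose mean reached 50, the 3 closest patterns (mean of at least 100) and the 3 nearest tested protein-coding genes on each side; others are said to be chosen after the fact, and 1 gene that the rule names is not reported here. Counting intervals are not given, since the replicate spread was used. Alternatives were count tests on recovered reads (edgeR 4.0.16, DESeq2 1.42.0), scaling by TMM or upper quartile, other filters and pseudocounts, the replicate number as block, the loss of 1 library, a minimum change, and subtraction of a trend with neighbouring genes (median within 5 Mb) or gene length. The fit was tested on simulated data.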

Additional observations from a re-analysis of the deposited data

How the results depend on the processing

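The trio stayed lower in knockout in all 17 alternatives. With the neighbour trend subtracted, HK2 was at log2 -0.96, ENO2 at -1.77 and SLC2A3 at -1.59; with the length trend subtracted HK2 was at -1.16 and SLC2A3 at -1.07, and with upper-quartile scaling SLC2A3 was at -1.19. Leaving out each library gave -1.25 to -1.19 for HK2, -1.37 to -1.28 for ENO2 and -1.15 to -1.12 for SLC2A3. Over all tested genes, calls were 3557 higher and 3513 lower; leaving out a library gave 3053 to 3281 and 3057 to 3258, and subtracting the neighbour trend left 2247 higher. That setting gave 5 falls in glycolysis, 6 in branch pathways, 2 rises among HIF targets and 5 among regulators. With a change of at least 1 on the log2 scale, 627 genes rose and 804 fell; the lists then held 1 and 1 (glycolysis), 1 and 0 (pyruvate and lactate), 0 and 1 (branch pathways), 1 and 9 (HIF targets) and 0 and 3 (regulators). Leaving out a library, glycolysis had 4 rises and 7 to 9 falls, and HIF targets 3 to 4 and 16 to 18. The cause of these shifts was not tested. Same-numbered libraries of the groups correlated at 0.045, 0.044 and -0.044 in their deviations, and not every library correlated best with its own number. With 3 libraries in each group this check cannot decide whether a number marks a shared culture, clone or guide. With the numbers as a replicate block 3569 genes rose and 3522 fell. In that setting HK2, ENO2 and SLC2A3 kept log2 fold changes of -1.22, -1.33 and -1.13. ENO2, at 325 to 370 reads in a knockout library, is the gene of the trio most limited by depth.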
